A study of Mus musculus with 3 samples.

Results

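The genes of the MHC class II antigen presentation pathway were followed in single cells of subcutaneous implants. The set held 10 genes, chosen by symbol, of 31053 genes in the count tables: the classical chains H2-Aa, H2-Ab1 and H2-Eb1, the invariant chain Cd74, the peptide exchange genes H2-DMa, H2-DMb1 and H2-DMb2, their partners H2-Oa and H2-Ob, and the transactivator Ciita. Levels were read in cells in which Col1a1, Col1a2, Col3a1, Dcn and Lum together made less than 1% of UMIs (unique molecular identifiers, each counting 1 captured RNA molecule). These are called non-stromal cells, and they were split by detection of Ms4a7, Retnla, Mmp12 and Xcr1. They numbered 6643 of 8728 Matrigel-only cells, 4105 of 5478 Vehicle cells and 6113 of 7297 Palo cells.

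The study implanted female CD-1 mice, aged 6 to 8 weeks, and measured the masses on day 5 by droplet RNA sequencing with 1 library per group. Matrigel-only mice received Matrigel without rhBMP2 and no drug. Vehicle mice received Matrigel with rhBMP2, the bone morphogenetic protein that drives heterotopic ossification in this model, and oral corn oil/DMSO. Palo mice received the same implant and oral palovarotene, a retinoic acid receptor gamma agonist, at 4 mg/kg daily for 5 days. All groups share the Matrigel carrier and an outbred stock, and a cell cannot be traced to its mouse. Matrigel-only is labelled as given nothing, so it differs from Vehicle in both rhBMP2 and oral corn oil/DMSO. Matrigel-only differs from Palo in rhBMP2, in drug and in oral dosing itself. With 1 library per group no test between groups was possible, so intervals below (95%, exact) cover counting error only.

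MHC class II molecules are alpha and beta chain pairs that show peptides from engulfed proteins to CD4 T cells. Cd74 chaperones the newly made pairs to endosomes, H2-DM exchanges the leftover Cd74 fragment for peptide, and H2-DO restrains H2-DM, chiefly in B cells and some dendritic cells. Ciita is recruited by factors bound to the promoters of all these genes and is itself induced by interferon gamma in macrophages, while dendritic cells carry class II without that signal.

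Class II promoters share an X box and a Y box, the latter an inverted CCAAT sequence. RefSeq promoters (GRCm38.p6, 250 bases before to 50 after the start) were matched by symbol for 7 of the 10 genes. The letters GATTGG were found on either strand in 7 of 7, against 16.1% of 32851 promoters. ACNNATG, letters that occur in the X box, were found in 6 of 7 against 30.2%. A match anywhere in the window was counted, so it need not lie in an X or Y box. Both motifs were chosen with these promoters in view. The stretches on chromosome 17 are shown for H2-Eb1, the member that stood apart in the data, for its neighbour H2-Aa, for the near-identical pair H2-DMb1 and H2-DMb2, and for H2-Ob. Capitals mark the motifs on the gene's strand, which do not overlap.
H2-Eb1, chr17:34305767-34305822, + strand: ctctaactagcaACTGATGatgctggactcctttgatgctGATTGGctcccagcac
H2-Aa, chr17:34287857-34287912, - strand: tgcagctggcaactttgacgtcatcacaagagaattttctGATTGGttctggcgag
H2-DMb1, chr17:34153089-34153144, + strand: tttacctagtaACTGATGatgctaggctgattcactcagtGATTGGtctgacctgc
H2-DMb2, chr17:34145118-34145173, + strand: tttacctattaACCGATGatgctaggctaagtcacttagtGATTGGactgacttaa
H2-Ob, chr17:34238807-34238862, + strand: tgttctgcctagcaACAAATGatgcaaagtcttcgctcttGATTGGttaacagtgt
GATTGG began 60 bases before the RefSeq start in H2-Eb1, 49 in H2-Aa, 62 in H2-DMb1, 91 in H2-DMb2 and 58 in H2-Ob. ACNNATG began 28 bases before GATTGG in H2-Eb1, 29 in both H2-DMb1 and H2-DMb2 and 26 in H2-Ob. None was placed before GATTGG in the stretch of H2-Aa, nor in those of H2-Oa and H2-DMa, which are not shown. GATTGG began 44 bases before the start in H2-Oa and 199 in H2-DMa.

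In the GENCODE vM21 annotation on mm10, 8 of the 10 genes lie together on chromosome 17, from H2-Oa (chr17:34092340-34095234) to H2-Eb1 (chr17:34305867-34316674). H2-Aa (chr17:34282744-34287823) and H2-Ab1 (chr17:34257689-34269419) lie between them. Cd74 is on another chromosome and Ciita at chr16:10480059-10528418. All 10 are protein coding, and UMIs were counted per gene, so no value below belongs to a single exon.

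The libraries held 44252421 to 46901673 UMIs, and the median non-stromal cell had 2950 UMIs for Matrigel-only, 3208 for Vehicle and 4156 for Palo. Non-stromal cells carried 96.8% to 98.5% of the class II UMIs of all cells kept. The leukocyte gene Ptprc was detected in 68.7% to 79.6% of them and in 6.09% to 7.41% of stromal cells, those with at least 5% of UMIs from the 5 stromal genes. Macrophage markers dominated, at 22280, 16962 and 23783 CPM (UMIs of the gene per 1e6 UMIs) summed over 11 genes in Matrigel-only, Vehicle and Palo. B cell markers, another class II source, summed over 4 genes to 18.7, 17.8 and 26.2 CPM. Vehicle stood apart in other leukocytes, with 65.0 CPM of T cell, 204 of neutrophil and 186 of basophil markers, against at most 4.85, 14.0 and 2.74 in the other libraries. It also stood apart in H2-Eb1, as described below. The libraries shared 11 to 21 barcodes in pairs. Leaving these out moved none of the summed ratios or counts of members over all non-stromal cells below, at the precision printed. Values within marker classes were not recomputed without them.

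Class II RNA made 2.59% of non-stromal UMIs for Matrigel-only, 2.08% for Vehicle and 3.41% for Palo. H2-Aa, the alpha chain of the I-A molecule, was at 4866 CPM (4837 to 4895) for Matrigel-only, 3370 (3342 to 3398) for Vehicle and 5946 (5918 to 5975) for Palo. Its partner beta chain H2-Ab1 was at 4929 (4900 to 4959), 4651 (4618 to 4684) and 6900 CPM (6869 to 6930). Both were highest in Palo, and only H2-Aa was well below Matrigel-only in Vehicle. H2-Eb1, the beta chain of the I-E molecule, was at 3832 CPM (3806 to 3858) for Matrigel-only, 954 (940 to 969) for Vehicle and 3778 (3756 to 3800) for Palo. The Vehicle level of this chain was 0.249 times that of Matrigel-only, and the Palo level 0.986 times it. H2-Eb2, a further chain gene of the locus, stayed at 0.269 to 0.422 CPM in the 3 libraries.

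Cd74 was at 10999 CPM (10956 to 11043) for Matrigel-only, 10569 (10519 to 10618) for Vehicle and 15910 (15864 to 15956) for Palo. It kept a near-constant proportion to H2-Ab1, with 2.23, 2.27 and 2.31 UMIs per H2-Ab1 UMI in the same order. The peptide exchange chain H2-DMa was at 846, 702 and 941 CPM and its beta partner H2-DMb1 at 241, 321 and 367 CPM. H2-DMb1 was therefore lowest in Matrigel-only, whereas H2-DMa was lowest in Vehicle. The second beta gene H2-DMb2 was at 63.5, 60.6 and 50.3 CPM, and reads of this near-identical pair may have been split between them by the counting, so their separate values are uncertain.

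H2-Oa, the alpha chain of the H2-DM modulator H2-DO, was scarce, with 6.19 CPM (5.20 to 7.32) for Matrigel-only, 5.85 (4.74 to 7.13) for Vehicle and 3.78 (3.10 to 4.56) for Palo. The first 2 intervals overlap. H2-Ob, its beta chain, was at 12.4 (11.0 to 14.0), 17.9 (15.9 to 20.1) and 9.91 CPM (8.80 to 11.1), highest in Vehicle. Ciita was at 139 CPM (134 to 144), 151 (145 to 157) and 166 (162 to 171). It followed neither the low Vehicle level of H2-Eb1 nor the steps of Cd74.

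**Figure D1:**
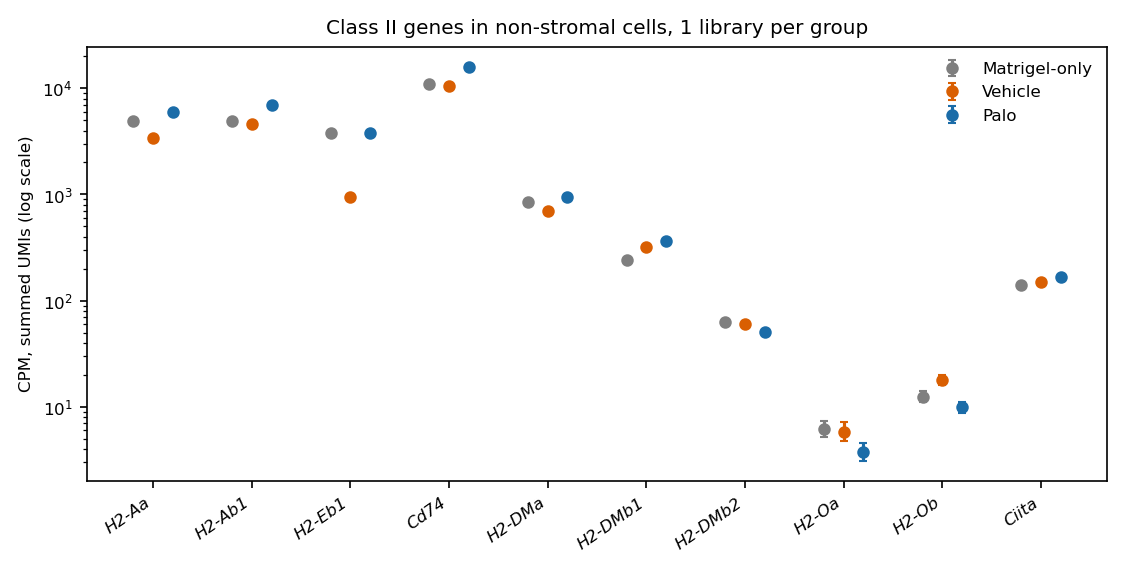
CPM of each class II gene (log axis) in the summed non-stromal cells of Matrigel-only, Vehicle and Palo, 1 library each, with bars for the 95% exact Poisson intervals of counting. H2-Eb1 in Vehicle, at 954 CPM, sits apart from 3832 and 3778 in the other libraries, while Ciita lies between 139 and 166.

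A gene was counted as past 1.5-fold on CPM with 5 added, among genes with at least 5 CPM in 1 of the 2 libraries compared. From Matrigel-only to Vehicle, 0 of 10 members were past 1.5-fold higher, where 8.45% of 10133 genes were, and 1 of 10, H2-Eb1, was past 1.5-fold lower, where 4.40% were. The members' median log2 ratio was -0.06, beside 0.03 over all genes. The sum of the 10 members had a log2 ratio of -0.32 (-0.32 to -0.31), which was -0.16 with H2-Eb1 left out and -0.83 when cells with up to 5% stromal UMIs were let in.

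From Vehicle to Palo, 3 of 10 members were past 1.5-fold higher (H2-Aa, H2-Eb1 and Cd74), where 3.23% of 10057 genes were, and H2-Ob was past 1.5-fold lower, where 11.6% were. H2-Ab1 came just short of that limit, at 1.48 times Vehicle. The median log2 ratio was 0.31 for the members and -0.17 for all genes. The summed level had a log2 ratio of 0.71 (0.71 to 0.72), which was 1.34 with cells of up to 5% stromal UMIs. TMM factors, which centre the bulk of genes, moved every gene by 0.25 on the log2 scale in this comparison, and the split of all genes past 1.5-fold from 325 higher and 1165 lower to 723 and 736. This comparison shares the Vehicle library with the one before it, so a low Vehicle value enters both.

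From Matrigel-only to Palo, 1 of 10 members, H2-DMb1, was past 1.5-fold higher, at 1.52 times, where 1.58% of 9766 genes were, and 0 were past it lower, where 4.16% were. The median log2 ratio was 0.20 for the members and -0.13 for all genes, and that of the sum was 0.39 (0.39 to 0.40). Cd74 at 1.45 and H2-Ab1 at 1.40 times Matrigel-only lay near the limit, and H2-Eb1 was at 0.986 times it. TMM factors moved every gene by 0.17 here, the split of all genes from 154 higher and 406 lower to 279 and 214, and the log2 ratio of H2-Eb1 from -0.02 to 0.15, the 1 change of direction among the members.

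The share of cells with H2-Ab1 RNA had the same order of libraries as its level, whereas those of H2-Eb1 and Ciita did not. After each cell was thinned to 1100 UMIs, H2-Ab1 was found in 64.9% of Matrigel-only (63.7 to 66.1), 56.1% of Vehicle (54.5 to 57.8) and 76.4% of Palo cells (75.3 to 77.4). Cells shallower than this, 579, 409 and 162 in number, were left out, and the unthinned shares were 70.2%, 61.5% and 83.2%. H2-Eb1 was found after thinning in 62.0% (60.8 to 63.2), 23.4% (22.0 to 24.8) and 71.7% (70.5 to 72.8), and unthinned in 67.1%, 32.7% and 78.1%. In stromal cells, which should hold little class II RNA of their own, thinned shares were 5.96%, 3.41% and 5.77% for H2-Ab1 and 5.29%, 1.22% and 3.76% for H2-Eb1. All non-stromal shares of both genes lay far above this background. Ciita, sparser, was found after thinning in 12.8%, 11.7% and 14.7%, against 0.293%, 0.218% and 0.247% of stromal cells.

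H2-Aa, H2-Ab1, H2-Eb1 and Cd74 together, here called the core genes, reached at least 1% of a cell's UMIs in 55.9% of Matrigel-only (54.7 to 57.1), 45.7% of Vehicle (44.2 to 47.3) and 70.5% of Palo cells (69.3 to 71.6). The median cell held 1.63%, 0.687% and 3.48%. The 90th percentile over cells was 6.14%, 5.01% and 6.39%, so the libraries differed more in their median cell than in their richest cells.

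**Figure D2:**
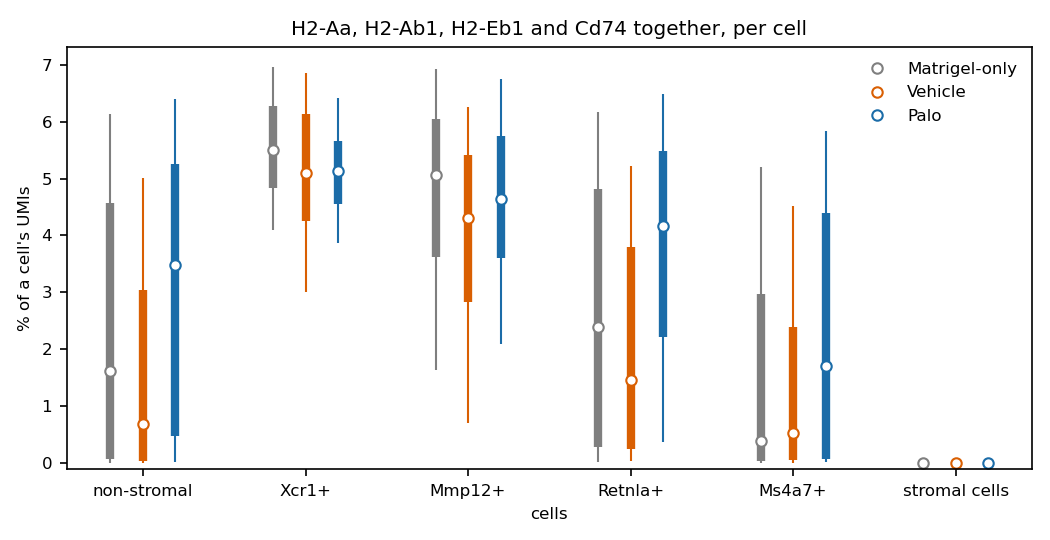
Share of a cell's UMIs (%) from H2-Aa, H2-Ab1, H2-Eb1 and Cd74 together, by the marker detected and by library. Open circles are medians over cells, thick bars run from the 25th to the 75th and thin bars from the 10th to the 90th percentile. Xcr1+ and Mmp12+ cells have medians of 4.31% to 5.50% in all libraries, whereas Ms4a7+ cells range from 0.392% to 1.71%.

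The 4 markers divided the cells by class II content in the same order in every library. Ms4a7 is a macrophage membrane protein, Retnla an alternatively activated macrophage product, Mmp12 macrophage elastase and Xcr1 the chemokine receptor of conventional type 1 dendritic cells. A cell with several markers counts under each. Median core shares were highest in Xcr1+ cells (5.50%, 5.10% and 5.14% in Matrigel-only, Vehicle and Palo), then in Mmp12+ cells (5.06%, 4.31% and 4.64%), Retnla+ cells (2.39%, 1.47% and 4.16%) and Ms4a7+ cells (0.392%, 0.532% and 1.71%). Palo cells with Mmp12 and no other of the 4 markers had a median of 5.26%, above that of Palo Xcr1+ cells. The Xcr1+ cells numbered 131, 37 and 87 in Matrigel-only, Vehicle and Palo. Xcr1+ cells held 4318 to 4629 CPM of 11 dendritic markers, Xcr1 itself included, against 511 to 652 CPM in all non-stromal cells. Their macrophage markers summed to 3161 to 4955 CPM.

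H2-Ab1 was at 12108, 13142 and 12085 CPM in Xcr1+ cells and at 9966, 10104 and 10142 CPM in Mmp12+ cells of Matrigel-only, Vehicle and Palo. Within these high classes the libraries were close. In Retnla+ cells it was at 5720, 5963 and 8346 CPM, and in Ms4a7+ cells at 2490, 3031 and 4103 CPM, with Palo highest in both. Cd74 had the same pattern, with 20612, 20635 and 22224 CPM in Mmp12+ cells against 6153, 7731 and 10189 CPM in Ms4a7+ cells. Stromal cells held 290, 108 and 266 CPM of Cd74, and Vehicle T cells, those with at least 2 UMIs of Cd3d, Cd3e and Cd3g, 241 CPM.

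Among the marked classes, H2-DO chains were at their highest levels in Xcr1+ cells. H2-Oa was at 130 CPM (102 to 163), 81.1 (51.4 to 122) and 116 (87.9 to 150) there, on 23 to 75 UMIs, and at 0.635 to 6.93 CPM in the other marked classes. Cells with none of the 4 markers held 50, 39 and 31 H2-Oa UMIs in Matrigel-only, Vehicle and Palo. Xcr1+ cells held 75, 23 and 57. H2-Ob was at 232 CPM (194 to 275), 176 (131 to 233) and 181 (146 to 223) in Xcr1+ cells. In Mmp12+ cells H2-Ob reached 38.3 CPM (31.3 to 46.4) in Vehicle, against 8.26 (5.40 to 12.1) in Matrigel-only and 12.0 (9.49 to 15.0) in Palo. Those intervals do not overlap with that of Vehicle. Ciita fell in the same order of classes as the core genes, from 470 to 603 CPM in Xcr1+ and 262 to 310 in Mmp12+ cells to 146 to 190 in Retnla+ and 68.4 to 84.9 in Ms4a7+ cells. H2-DMa had another order, with 1424 to 1793 CPM in Mmp12+ cells above 1020 to 1130 CPM in Xcr1+ cells.

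**Figure D3:**
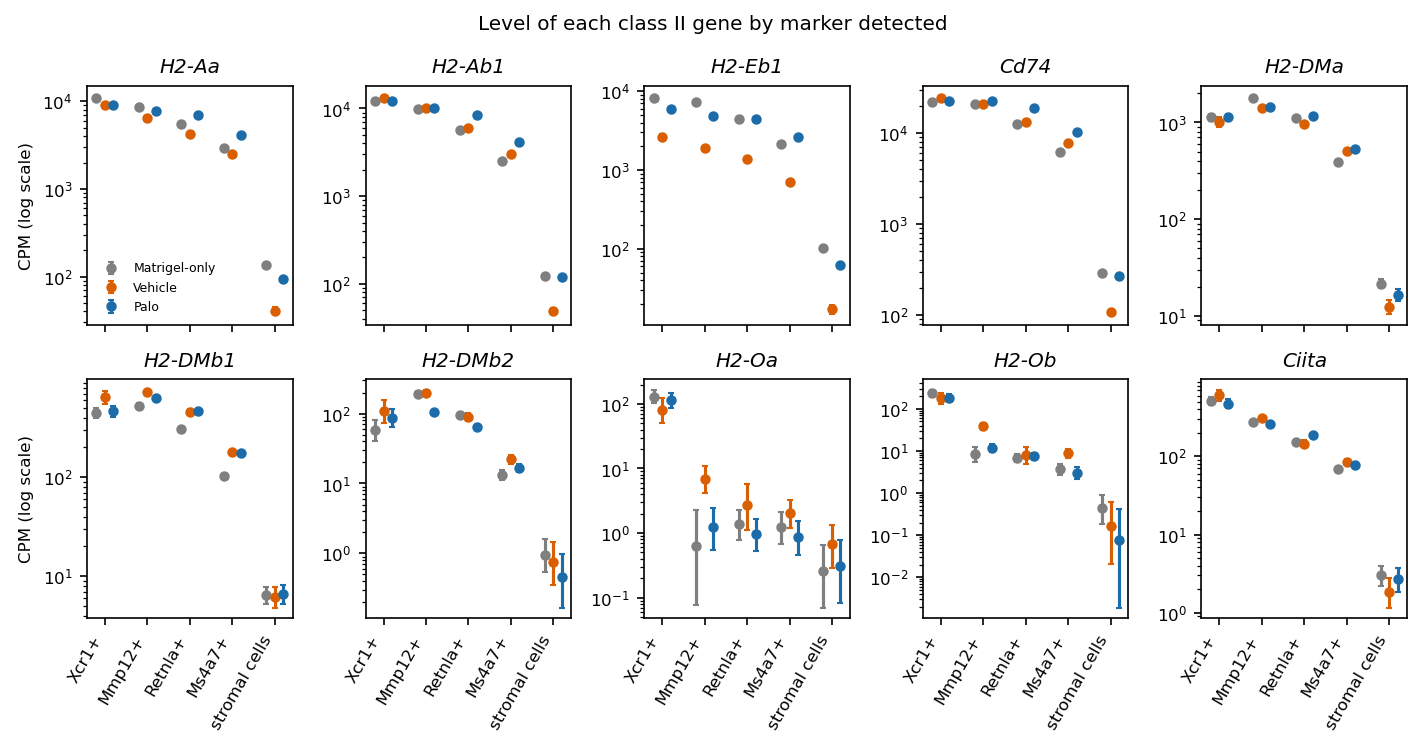
CPM (log axis) of each class II gene by marker detected (Xcr1, Mmp12, Retnla, Ms4a7) and in stromal cells, coloured by library, with 95% exact Poisson bars. H2-Oa and H2-Ob peak in Xcr1+ cells, at 81.1 to 130 and 176 to 232 CPM, and each gene is lowest in stromal cells in each library.

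The classes did not take equal shares of the libraries. Retnla was detected in 49.3% of Matrigel-only non-stromal cells (48.0 to 50.5), 11.3% of Vehicle (10.3 to 12.3) and 45.7% of Palo (44.4 to 46.9), and after thinning in 39.4%, 8.51% and 35.1%. Cells with none of the 4 markers made 14.9%, 37.0% and 14.7%, and their H2-Ab1 was at 5755, 3996 and 7463 CPM. Mmp12 was detected in 10.2%, 9.74% and 16.1%, Ms4a7 in 48.5%, 50.9% and 49.2%, and Xcr1 in 1.97%, 0.901% and 1.42%. When every library was given the class shares of Matrigel-only, the summed log2 ratio was -0.15 for Vehicle over Matrigel-only in place of -0.32, 0.53 for Palo over Vehicle in place of 0.71, and 0.37 for Palo over Matrigel-only in place of 0.39.

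Within classes of non-stromal cells the summed ratio of Palo over Vehicle varied, and it was largest in cells with none of the 4 markers, at 1.06 on the log2 scale (1.05 to 1.08). These unmarked cells made 37.0% of Vehicle, and their log2 ratio was -0.77 (-0.79 to -0.76) for Vehicle over Matrigel-only and 0.29 (0.28 to 0.30) for Palo over Matrigel-only. The unmarked cells were not the same mix in each library. In Matrigel-only, Vehicle and Palo they held 31.6, 202 and 28.2 CPM of T cell and 74.2, 664 and 50.7 of neutrophil markers. Basophil markers there summed to 6.71, 589 and 12.7 CPM, and macrophage markers to 15567, 10010 and 18593. The part of this mix in their ratios was not tested. For Palo over Vehicle the summed log2 ratio was 0.62 (0.61 to 0.64) in Retnla+ and 0.56 (0.55 to 0.57) in Ms4a7+ cells, 0.18 (0.17 to 0.19) in Mmp12+ and 0.01 (-0.02 to 0.04) in Xcr1+ cells. For Palo over Matrigel-only it was 0.44 (0.44 to 0.45), 0.61 (0.60 to 0.62), -0.05 (-0.06 to -0.04) and -0.09 (-0.12 to -0.07) in the same order. Counting only cells with Ms4a7 and no other of the 4 markers lowered the Ms4a7+ values to 0.29 and 0.38. Cells with Mmp12 alone had 0.29 and 0.06, so for Palo over Vehicle these 2 classes had the same value when cells with several markers were left out, and cells with Retnla alone had 0.63. For Vehicle over Matrigel-only it was -0.18 (-0.19 to -0.17), 0.05 (0.04 to 0.06), -0.24 (-0.25 to -0.23) and -0.10 (-0.13 to -0.07) in Retnla+, Ms4a7+, Mmp12+ and Xcr1+ cells. Whether these ratios differ between classes beyond animal-to-animal spread was not tested, since each group had 1 library.

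Single genes within classes departed from the sum. H2-Eb1 was lower in Vehicle than in Matrigel-only in all 4 classes, with log2 ratios of -1.65 (-1.76 to -1.53), -1.93 (-1.98 to -1.89), -1.66 (-1.71 to -1.61) and -1.61 (-1.65 to -1.57) in Xcr1+, Mmp12+, Retnla+ and Ms4a7+ cells. In Ms4a7+ cells it was past 1.5-fold lower as 1 of 9 members, where 6.28% of genes were, while H2-DMb1 (102 and 179 CPM in Matrigel-only and Vehicle), H2-DMb2 (13.1 and 22.4) and H2-Ob (3.72 and 8.74) were past it higher, 3 of 9 where 7.26% were. In Retnla+ cells H2-Eb1 was the 1 member of 9 past it lower, where 6.92% were, and 0 were past it higher, where 6.86% were. In Mmp12+ cells H2-Oa (2 and 19 UMIs) and H2-Ob were past it higher, 2 of 10 where 9.60% were, and H2-Eb1 past it lower, where 5.68% were. In Xcr1+ cells, with few UMIs per gene, H2-DMb2 was past it higher, 1 of 10 where 16.6% were, and H2-Eb1 and H2-Oa past it lower, 2 of 10 where 20.9% were.

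From Vehicle to Palo, H2-Eb1 was past 1.5-fold higher in each class, and H2-Aa joined it in Ms4a7+ cells (2508 and 4100 CPM in Vehicle and Palo) and in Retnla+ cells (4223 and 7037 CPM). These were 2 of 9 members in Ms4a7+ cells, where 4.12% of genes were, and 2 of 9 in Retnla+ cells, where 5.57% were. H2-Ob was past it lower in Ms4a7+ cells, 1 of 9 where 8.83% were, and 0 of 9 were in Retnla+ cells, where 13.2% were. In Mmp12+ cells 1 of 10 was past it higher, where 4.11% were, and 3 of 10 lower, where 12.0% were, namely H2-Oa, H2-Ob and H2-DMb2. H2-DMb2 was at 192, 198 and 105 CPM in Mmp12+ cells of Matrigel-only, Vehicle and Palo. In Xcr1+ cells 1 of 10 was past it higher, where 19.1% were, and 0 lower, where 19.2% were.

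From Matrigel-only to Palo, H2-DMb1, H2-Ab1 and Cd74 were past 1.5-fold higher in Ms4a7+ cells, 3 of 8 members where 2.46% of genes were, and 0 were past it lower, where 4.67% were. In Retnla+ cells H2-DMb1 was past it higher, 1 of 9 where 1.57% were, at 309 and 471 CPM, and 0 were past it lower, where 5.05% were. In Mmp12+ cells 0 of 9 were past it higher, where 1.63% were, and H2-DMb2 was past it lower, where 3.86% were. In Xcr1+ cells 0 of 10 were past it in either direction, where 11.2% of genes were higher and 15.2% lower.

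**Figure D4:**
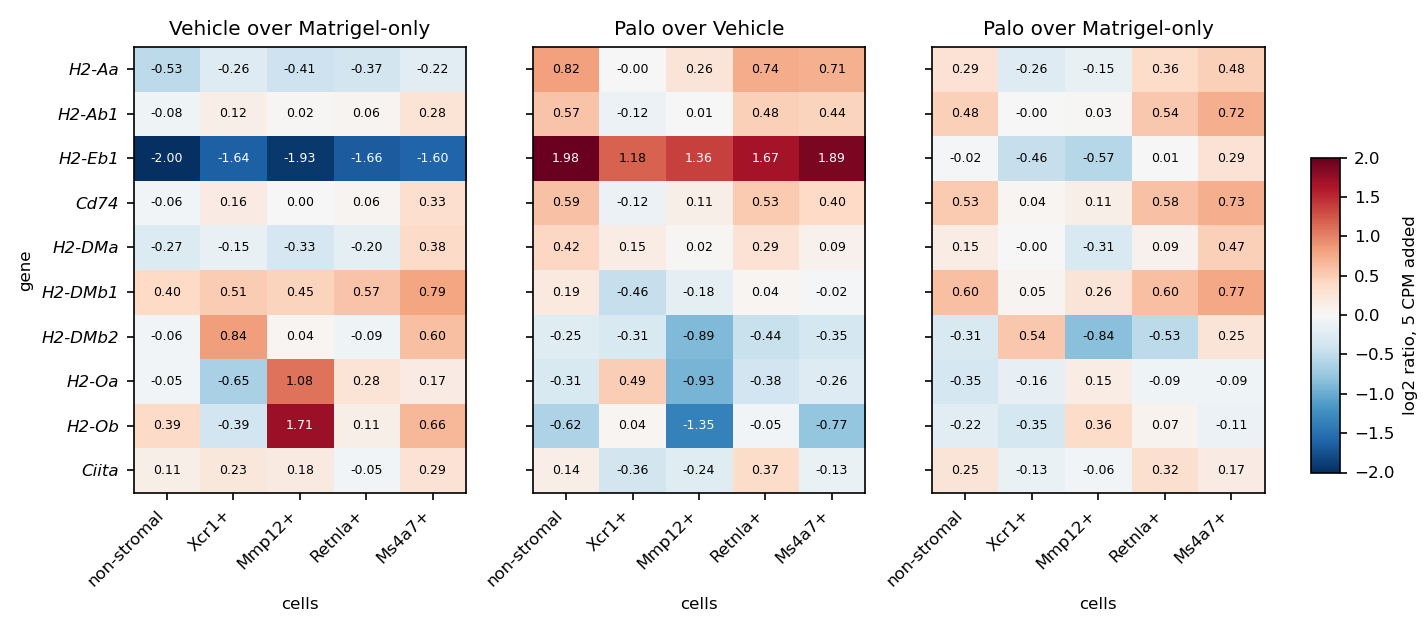
Log2 ratio of CPM (5 added) of each class II gene for the 3 comparisons, in all non-stromal cells and by the marker detected, with the value printed and coloured from blue (lower) to red (higher). H2-Eb1 is at -1.60 or below for Vehicle over Matrigel-only and at 1.18 to 1.98 for Palo over Vehicle, and H2-Aa is negative in the first throughout.

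H2-Eb1 was then set against the other chains, so that depth and the number of class II cells cancel. Over all non-stromal cells there were 0.777 H2-Eb1 UMIs per H2-Ab1 UMI in Matrigel-only (0.770 to 0.784), 0.205 in Vehicle (0.202 to 0.209) and 0.548 in Palo (0.544 to 0.552). The H2-Aa to H2-Ab1 ratio moved less, at 0.987, 0.725 and 0.862. The little class II RNA counted in stromal cells had the same order of libraries, with 0.842 (0.787 to 0.900), 0.348 (0.295 to 0.409) and 0.513 (0.471 to 0.559) per H2-Ab1 UMI.

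Vehicle cells fell into 2 kinds by this measure. Among cells with at least 50 UMIs of H2-Aa, H2-Ab1 and H2-Eb1, the H2-Eb1 share of these UMIs was below 7.5% in 485 of 939 Vehicle cells, 51.7% (48.4 to 54.9). It was at or above 10% in 445, and only 9 lay between. The corresponding cells below 7.5% numbered 1 of 2344 in Matrigel-only and 3 of 3361 in Palo. Median shares were 27.9% for Matrigel-only, 5.62% for Vehicle and 22.9% for Palo. The nearest Vehicle cells outside that range had shares of 6.90% and 10.3%, so the middle was thinly filled but not empty. These limits were chosen after the distribution was seen. With at least 20 or at least 100 such UMIs asked for, the low cells made 58.2% and 44.9% of Vehicle.

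**Figure D5:**
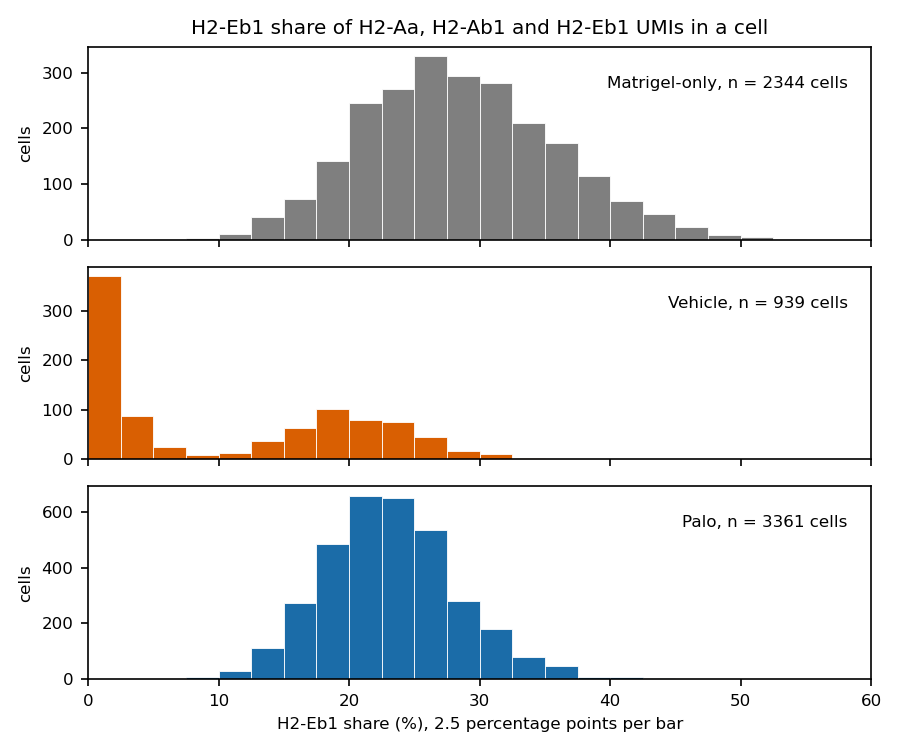
Number of cells by the H2-Eb1 share (%) of their H2-Aa, H2-Ab1 and H2-Eb1 UMIs, in bars of 2.5 percentage points, for non-stromal cells with at least 50 such UMIs in each library. Matrigel-only (2344 cells, median 27.9%) and Palo (3361 cells, median 22.9%) have 1 peak each, and Vehicle (939 cells) has a peak near 0 and another near those of the other libraries.

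Low H2-Eb1 Vehicle cells occurred in every marker class. Among Vehicle cells with at least 50 UMIs of H2-Aa, H2-Ab1 and H2-Eb1, low cells made 54.6% of Mmp12+ cells (48.8 to 60.2). They made 47.2% of Ms4a7+ (42.1 to 52.4), 43.9% of Retnla+ (36.4 to 51.7) and 50.0% of Xcr1+ cells (32.4 to 67.6). Of cells with none of the 4 markers they made 60.9% (54.1 to 67.4). The cells that reached this limit numbered 306 of 400 Mmp12+, 381 of 2091 Ms4a7+, 173 of 462 Retnla+ and 220 of 1519 unmarked cells. The rest of each class was not sorted by H2-Eb1 share. In every class the share of low cells was smaller with at least 100 such UMIs asked for than with at least 20. The Xcr1+ value rests on 34 cells. By construction, H2-Eb1 was low in the 485 cells, at 283 CPM against 5296 in the 445 others, and 157 of them had 0 H2-Eb1 UMIs. Several other members were close between the 2 kinds. Cd74 was at 21995 and 22775 CPM in low and other cells, H2-DMa at 1372 and 1368, H2-DMb1 at 705 and 671, and Ciita at 357 and 285. H2-Ab1, which enters the share and the limit of 50 UMIs, was at 10530 and 11158 CPM. Among the members the rule of the split did not use, the gap was widest in H2-DMb2, at 194 and 90.6 CPM, then in the scarce H2-Oa, at 13.6 and 6.93, and H2-Ob, at 52.5 and 30.2. H2-Aa, which also enters the share and the limit of 50 UMIs, was at 6514 and 9444 CPM. The low cells were somewhat deeper, with a median of 5856 UMIs against 4807. Low cells had to reach 50 chain UMIs with little H2-Eb1, so this limit bears on these levels and on depth.

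The 2 kinds of Vehicle cells also differed in genes outside the pathway, which were chosen after their values were seen and serve as a description of this library. Of 3290 genes with at least 50 CPM in either kind, 85 were at least 2-fold higher and 67 at least 2-fold lower in low H2-Eb1 cells. Of the genes higher in low H2-Eb1 cells, Gm15056 had the widest ratio (138 CPM in low and 1.22 in other cells). The haemoglobin genes Hbb-bs (432 and 17.9) and Hba-a1 (234 and 8.97), which are erythroid, came next. Hbb-bs was at 1268 and 22.0 CPM within Ms4a7+ cells but at 21.9 and 14.4 within Mmp12+ cells, and the part of erythroid RNA in the difference between the 2 kinds was not tested. Arg1, the arginase of alternatively activated macrophages, was at 1007 CPM in low and 81.6 in other cells. The chemokine Ccl24 was at 1153 and 104 CPM, the lipoxygenase Alox15 at 101 and 3.26, and the interferon gamma induced chemokine Cxcl9 at 88.6 and 7.75. Lower in low H2-Eb1 cells were the eosinophil-associated ribonuclease Ear2 (32.0 and 421 CPM) and the interferon-induced genes Ifit3 (5.63 and 81.6) and Rsad2 (5.63 and 80.8). Arg1 kept its direction within Ms4a7+ (1517 and 189 CPM) and Mmp12+ cells (790 and 52.0). Cxcl9 was at 160 and 12.1 CPM within Ms4a7+ cells but at 6.35 and 5.53 within Mmp12+ cells. It does not stand for the interferon gamma axis described below. Of 18 genes of that axis, 3 were past 1.5-fold higher and 4 past it lower in low cells. Over all 9694 genes, 763 and 397 were. The chemokine Cxcl10 was at 32.9 CPM in low and 126 in other cells. From H2-K1 to H2-T23 on chromosome 17, the stretch around the chains themselves, 32 genes outside the set had at least 50 CPM in either kind. Of these 1 was past 2-fold, the complement gene C4b, at 19.0 and 121 CPM. The members, H2-DMb2 among them, were left out of this count. The class I heavy chain H2-D1 came just short of 2-fold, at 3995 and 2031 CPM. How many mice each kind came from cannot be told from the libraries. Mice of an outbred stock can carry different class II alleles, and the genotype of the mice and the H2-Eb1 level of these cells cannot be told apart here, which also holds for the low H2-Eb1 level of the whole Vehicle library. H2-Aa UMIs per H2-Ab1 UMI were 0.619 in low and 0.846 in other cells, so the same limit applies to the H2-Aa level of Vehicle. It also applies to the Vehicle levels of H2-DMb2, H2-Oa and H2-Ob, which differed between the 2 kinds as given above.

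Other genes shared the class II pattern. Over 18 units, the 6 exclusive marker classes of each library, the mean log2 level of the core genes was correlated with 4805 genes of at least 50 CPM in some unit. This is a description, since the 6 classes of a library are not independent samples. The highest Pearson r outside the members was that of the ganglioside synthase St3gal5, 0.947, from 2.02 to 128 CPM, followed by Shtn1 (0.915), the ganglioside activator Gm2a (0.913, 343 to 1850 CPM), Coro2a (0.903), Unc119 (0.902), Rab11fip1 (0.897), Plekho2 (0.896), Pmaip1 (0.895), Hlcs (0.895) and Elovl5 (0.881). Ciita had r = 0.854, H2-DMa 0.844 and H2-DMb1 0.744. The outside genes were picked as the highest among the 4805 compared, whereas the members were set beforehand. Their r values therefore cannot be weighed against each other. Among the members, H2-Ob (0.562) and H2-Oa (0.462) tracked the core genes least.

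Most of the interferon gamma axis and of the MHC class I presentation genes were past 1.5-fold higher in Vehicle than in Matrigel-only. Of 19 interferon gamma axis genes with at least 5 CPM, 15 were past it, where 8.45% of all genes were, and 0 were past it lower, where 4.40% were, with a median log2 ratio of 1.49. In Palo 15 of 19 were past it lower than in Vehicle, where 11.6% of all genes were (median -1.81). The receptor chain Ifngr1, at 248, 219 and 267 CPM in Matrigel-only, Vehicle and Palo, was instead lowest in Vehicle. The kinase Jak1, at 257, 208 and 211 CPM, was highest in Matrigel-only and close between Vehicle and Palo. Ifng, the cytokine, was at 0.763, 10.2 and 0.867 CPM in Matrigel-only, Vehicle and Palo, the signalling kinase Jak2 at 29.9, 134 and 26.4, and the chemokines Cxcl9 and Cxcl10 at 0.718, 38.3 and 0.520 and at 5.25, 71.6 and 8.04 CPM. Gbp4, an interferon-induced GTPase, was at 4.31, 64.1 and 4.54 CPM. Of 17 class I presentation genes, 11 were past 1.5-fold higher in Vehicle than in Matrigel-only (median 0.86), where 8.45% of all genes were, and 10 past it lower in Palo than in Vehicle (median -0.67), where 11.6% were. H2-D1, a classical class I heavy chain, was highest in Palo, at 2757, 3218 and 3441 CPM. The proteasome activator Psme2 was at 126, 317 and 140 CPM, the peptide transporter Tap1 at 67.3, 160 and 77.0, Psmb8 at 189, 439 and 254, and Nlrc5, the class I counterpart of Ciita, at 15.5, 34.7 and 13.4 CPM. Ciita itself differed by at most 1.19 times between any 2 libraries. The T cell and other leukocyte markers given above were also highest in Vehicle, and their part in these values was not tested.

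Within Vehicle, low H2-Eb1 cells and the others had close medians of these lists, but single genes differed. Of 18 interferon gamma axis genes with at least 5 CPM, 3 were past 1.5-fold higher and 4 past it lower in low cells (median log2 ratio -0.03). Over all 9694 genes, 763 and 397 were. The median thus covers moves in both directions. Jak2 was at 178 CPM in low and 73.0 in other cells, and Cxcl10 at 32.9 and 126. Of 17 class I genes, 3 were higher and 0 lower (median 0.25), where 763 and 397 of 9694 genes were. H2-D1 was at 3995 CPM in low and 2031 in other cells.

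None of 7 enhanceosome genes, whose products bind class II promoters, was past 1.5-fold in any comparison, with the shares of all genes given above. Rfx5 was at 6.78, 5.55 and 6.24 CPM and Creb1 at 69.6, 64.6 and 49.7 CPM in Matrigel-only, Vehicle and Palo. Of 10 measured proteases and regulators of the pathway, 2 were past 1.5-fold higher in Vehicle than in Matrigel-only, where 8.45% of all genes were, and 1 past it lower, where 4.40% were. Those higher were Ctss, the cathepsin that trims Cd74, at 2029 and 3081 CPM in Matrigel-only and Vehicle, and Sppl2a, at 113 and 181, and the lower one was Ctsd, at 1695 and 1103 CPM. From Vehicle to Palo, 1 was past it higher, where 3.23% of all genes were, namely Ctsc at 863 and 1562 CPM, and 1 past it lower, where 11.6% were, namely Sppl2a at 181 and 99.6 CPM. Of 9 costimulatory and inhibitory genes with at least 5 CPM, 3 were past 1.5-fold higher in Vehicle than in Matrigel-only, where 8.45% of all genes were. In Palo 4 were past it lower than in Vehicle, where 11.6% were, and 1 higher, where 3.23% were. The inhibitory ligand Pdcd1lg2 was at 2.33, 59.5 and 2.74 CPM in Matrigel-only, Vehicle and Palo, Cd274 at 15.6, 61.7 and 14.1, and the activating receptor Cd40 at 16.0, 42.9 and 22.6 CPM. Cd86, an activating ligand, was at 58.6, 53.7 and 53.9 CPM.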

How the data were processed

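Cells were captured from day 5 masses after dispase dissociation. The authors aligned the reads to mm10, and the submitters' processing notes name Cell Ranger 3.0.2 and Seurat 3. The deposited counts are UMIs per gene and barcode, unfiltered by the authors' cluster labels and not normalized, and the annotation release is not given in the sources used here. Barcodes with 200 to 6000 genes and at most 5% mitochondrial UMIs were kept. Counts were summed over cells and scaled to CPM of all UMIs. Levels are not scaled for length, as 3' tags were counted. Intervals are 95% exact (Poisson for levels, Clopper-Pearson for shares, conditional binomial for ratios). Cells were thinned to 1100 UMIs by the hypergeometric formula, the lowest 10th percentile of the libraries rounded down. Detection needed 1 UMI. Doublets were kept in the values printed. Scrublet (scanpy 1.11.5) called 0, 5 and 6 cells by its own threshold in Matrigel-only, Vehicle and Palo, so the highest scores at 0.8% per 1000 barcodes (684, 294 and 500) were left out as an alternative. Genes named outside the set were the 10 most correlated with the core genes, with at least 50 CPM, and at most 4 of each list with the largest ratio. Exceptions were those said to be chosen later and H2-D1, H2-Eb2, Ifng, Ifngr1, Jak1, Jak2, Nlrc5, Rfx5 and Cd86, added after their values were seen. The members and lists were chosen with earlier results of these data known. The limits on the H2-Eb1 share, the promoter motifs and the alternatives without H2-Eb1 and without shared barcodes were chosen after seeing the data. Scripts were checked on simulated counts. Values were computed in Python 3.11.15 (scipy 1.17.1, numpy 2.4.6), and edgeR 4.0.16 in R 4.3.3 gave TMM factors only.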

Additional observations from a re-analysis of the deposited data

How the results depend on the processing

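The summed class II ratio kept its direction in all 3 comparisons under every alternative run, and the largest moves came with stromal UMIs up to 5% for the 2 comparisons with Vehicle and with TMM factors for Palo over Matrigel-only. For Vehicle over Matrigel-only the log2 ratio of -0.32 became -0.34 with no limits on cells, -0.83 with stromal UMIs up to 5%, -0.30 with stromal UMIs below 0.2%, -0.30 without the highest Scrublet scores, -0.50 as a mean of per-cell CPM, -0.39 with TMM factors, -0.15 with the class shares of Matrigel-only and -0.16 without H2-Eb1. For Palo over Vehicle 0.71 became, in the same order, 0.75, 1.34, 0.68, 0.70, 0.90, 0.96, 0.53 and 0.61, and 0.73 with up to 10% mitochondrial UMIs. For Palo over Matrigel-only 0.39 became 0.41, 0.52, 0.38, 0.40, 0.39, 0.57, 0.37 and 0.45, and 0.40 with up to 10% mitochondrial UMIs. The limit of 5% admits cells with more stromal UMIs by construction. The cause of these shifts, the one at that limit included, was not tested.

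The number of members past 1.5-fold, 1 for Vehicle over Matrigel-only, was 4 with stromal UMIs up to 5% and 2 with per-cell means, with TMM factors or with Matrigel-only class shares. For Palo over Vehicle it was 4, with 7 at stromal UMIs up to 5%, 5 with TMM factors, 3 at stromal UMIs below 0.2%, 2 at Matrigel-only class shares and 1 at a 2-fold limit. For Palo over Matrigel-only it was 1, with 3 at stromal UMIs up to 5% or TMM factors, 2 with 1 CPM added, and 0 at stromal UMIs below 0.2%, per-cell means, Matrigel-only class shares or a 2-fold limit. These counts take both directions together. All genes were counted again with TMM factors only. For Vehicle over Matrigel-only they went from 856 higher and 446 lower to 720 and 562, and the other splits are given above. Under the other alternatives, a shift of the members cannot be told from one of all genes. Within classes, Palo over Matrigel-only in Mmp12+ cells reversed from -0.05 to 0.06 with exclusive classes, and Palo over Vehicle in Xcr1+ cells, 0.01, ranged from -0.06 to 0.03. The other 10 class ratios kept their direction with 2 UMIs of the marker asked for, exclusive classes or the highest Scrublet scores left out. No paired analysis was possible because each group had 1 library. H2-Oa and H2-Ob in Mmp12+, Retnla+ and Ms4a7+ cells rest on 2 to 107 UMIs, which limits their ratios.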
